A study of Mus musculus with 15 samples.

Results

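The 6 genes described here encode the platelet-derived growth factor (PDGF) receptors PDGFRα (Pdgfra) and PDGFRβ (Pdgfrb) and the ligand chains Pdgfa, Pdgfb, Pdgfc and Pdgfd. They were taken by name, each on the only probe set that named it alone, and are 6 of 19938 genes measured. The cells were cardiac colony forming units - fibroblast (cCFU-F), stromal cells of the mouse heart that form colonies when plated sparsely. Per the labels they came from male C57BL/6 mice of 12 weeks, with no transgene or deletion named, and were sorted before culture for SCA1 and PDGFRα and against CD31. There were 5 groups of 3 arrays each. Large colonies, none of them treated, were sampled at passages 5 and 15. Small colonies were sampled untreated at passage 5 and, where cultured in 50 ng/ml PDGF-AB, at passages 5 and 15. PDGF-AB is a dimer of a PDGF-A and a PDGF-B chain. Untreated small colonies at passage 15 were not analysed here, so colony size and PDGF-AB cannot be told apart wherever treated small colonies are set against large ones. Whether replicate arrays stem from different animals or cultures is not given in the labels, and the p-values therefore rest on a spread between arrays that may be technical.

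PDGF ligands are dimers that bring together a pair of receptor chains at the cell surface, and the receptors then phosphorylate each other and recruit adaptor proteins that carry the signal on. PDGF-A and PDGF-B chains are cut by furin-like proteases inside the cell. PDGF-C and PDGF-D are secreted with an N-terminal CUB domain that has to be removed outside the cell before they can bind, by proteases such as tissue plasminogen activator for PDGF-C and urokinase for PDGF-D. PDGFRα binds the A, B and C chains, while PDGFRβ binds the B and D chains. In the heart PDGFRα is a marker of fibroblasts and their progenitors, and PDGFRβ of pericytes and smooth muscle cells.

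All values are log2 intensities, in which a difference of 1 is a doubling of intensity. Array medians lay between 5.59 and 5.72, and lower quartiles between 4.06 and 4.23, so a level near or below the median carries a larger share of background. Pearson's r across genes, which are not independent replicates, was 0.997 to 0.998 within groups and 0.958 to 0.991 across them. The level of Xist, which female cells make from their inactive X chromosome, was 8.93 to 10.88 over the 15 arrays, while the 3 measured broadly expressed Y-linked genes lay between 2.24 and 3.40, which goes against the label male on every array. As this holds for all 15 arrays, no comparison could be made without them. Of 8 stromal fibroblast markers 6 to 8 lay above the array median on all 3 arrays of a group. Thy1 was an exception, with mean levels of 10.33 and 10.63 in large colonies and 5.11 to 5.49 in the 3 groups of small colonies. Lum, which encodes the matrix proteoglycan lumican, was the other, with a mean of 5.56 in late treated small colonies against 7.26 to 9.90 in the other groups. Pecam1, which encodes CD31, had group means of 4.29 to 4.59, and of 9 endothelial markers 1 lay above the median in each group. The same was true of 1 of 4 platelet markers and of 1 of 6 cardiomyocyte markers, while 2 to 4 of 7 macrophage markers and 3 to 5 of 7 pericyte markers did so. That cardiomyocyte marker was Tnnt2, which encodes cardiac troponin T. Its means were 7.99 and 7.32 in large colonies at passages 5 and 15. In small colonies they were 9.61 untreated, 10.38 early treated and 9.08 late treated. Ly6a, which encodes SCA1, was not analysed here.

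The group means of Pdgfra, Pdgfd and Pdgfc spanned more than 1 on the log2 scale, and the start regions of these genes are shown because their levels carry most of what follows. The sequences are those of the RefSeq promoter table for GRCm38.p6, 5′ to 3′ on the plus strand, limited to bases before the listed start and, for Pdgfd, to bases before the gene. Capitals mark a match to a searched motif.
Pdgfra, chr5:75152001-75152250: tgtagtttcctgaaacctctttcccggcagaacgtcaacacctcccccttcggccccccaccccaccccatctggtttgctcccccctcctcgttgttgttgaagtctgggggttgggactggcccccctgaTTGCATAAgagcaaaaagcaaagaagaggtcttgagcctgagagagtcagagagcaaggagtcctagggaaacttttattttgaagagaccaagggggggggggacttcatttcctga
Pdgfc, chr3:81036166-81036415: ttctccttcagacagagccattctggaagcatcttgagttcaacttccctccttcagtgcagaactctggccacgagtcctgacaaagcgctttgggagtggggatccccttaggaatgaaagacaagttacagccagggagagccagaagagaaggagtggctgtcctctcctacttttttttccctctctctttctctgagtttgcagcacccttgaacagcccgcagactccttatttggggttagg
Pdgfd, chr9:6168236-6168362: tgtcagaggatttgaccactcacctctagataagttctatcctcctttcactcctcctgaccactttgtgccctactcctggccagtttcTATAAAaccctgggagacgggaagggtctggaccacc
Both strands of each window of 250 bases before the listed start were searched for TATAAA (the TATA box), for CCAAT (the CCAAT box), for GGGCGG (a GC box), for TGANTCA (the AP-1 motif) and for TTGCNNAA (a C/EBP motif), and no matches overlapped. The Pdgfd window held TATAAA, starting 160 bases before the listed start and 37 bases before the gene's first annotated base. TATAAA was held by 12.4% of the 32851 windows of that length in the table. The Pdgfra window held TTGCATAA, a match to TTGCNNAA, 118 bases before the listed start, and 9.56% of windows held that motif. The listed start of Pdgfra lies within the gene's annotated extent and not at its first base. All bases printed for Pdgfra, the match among them, thus lie inside the annotated gene. No match to any of the 5 motifs was present in the Pdgfc window. The CCAAT box, the GC box and the AP-1 motif, held by 33.8%, 32.7% and 6.75% of windows, were found in none of the 3.

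Pdgfra, the receptor by which the cells were sorted, stood apart in 1 group. It read 8.76, 9.02 and 8.76 in large colonies at passage 15, against 6.62, 6.45 and 6.67 in large colonies at passage 5. The small colonies read 6.63, 6.79 and 6.57 without PDGF-AB at passage 5, then 6.23, 6.39 and 6.20 with it at passage 5, and 6.63, 6.61 and 6.66 with it at passage 15. The late large colonies lay above every other array, and the treated small colonies at passage 5 lay below every other array, while the other 3 groups overlapped. The rise with passage in large colonies was 4.80-fold (log2 change 2.26, SE 0.084, adjusted p = 1.68e-12 from limma over all genes). The span of group means, 2.57, was wider than that of 97.8% of all genes, whose median span was 0.40. In order of level, large colonies at passage 15 were followed by untreated small colonies, treated small colonies at passage 15 and large colonies at passage 5. Neighbours among those 3 were not told apart (adjusted p = 0.795 and 0.620), and treated small colonies at passage 5 came last (adjusted p = 0.00841 against large colonies at passage 5).

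**Figure D1:**
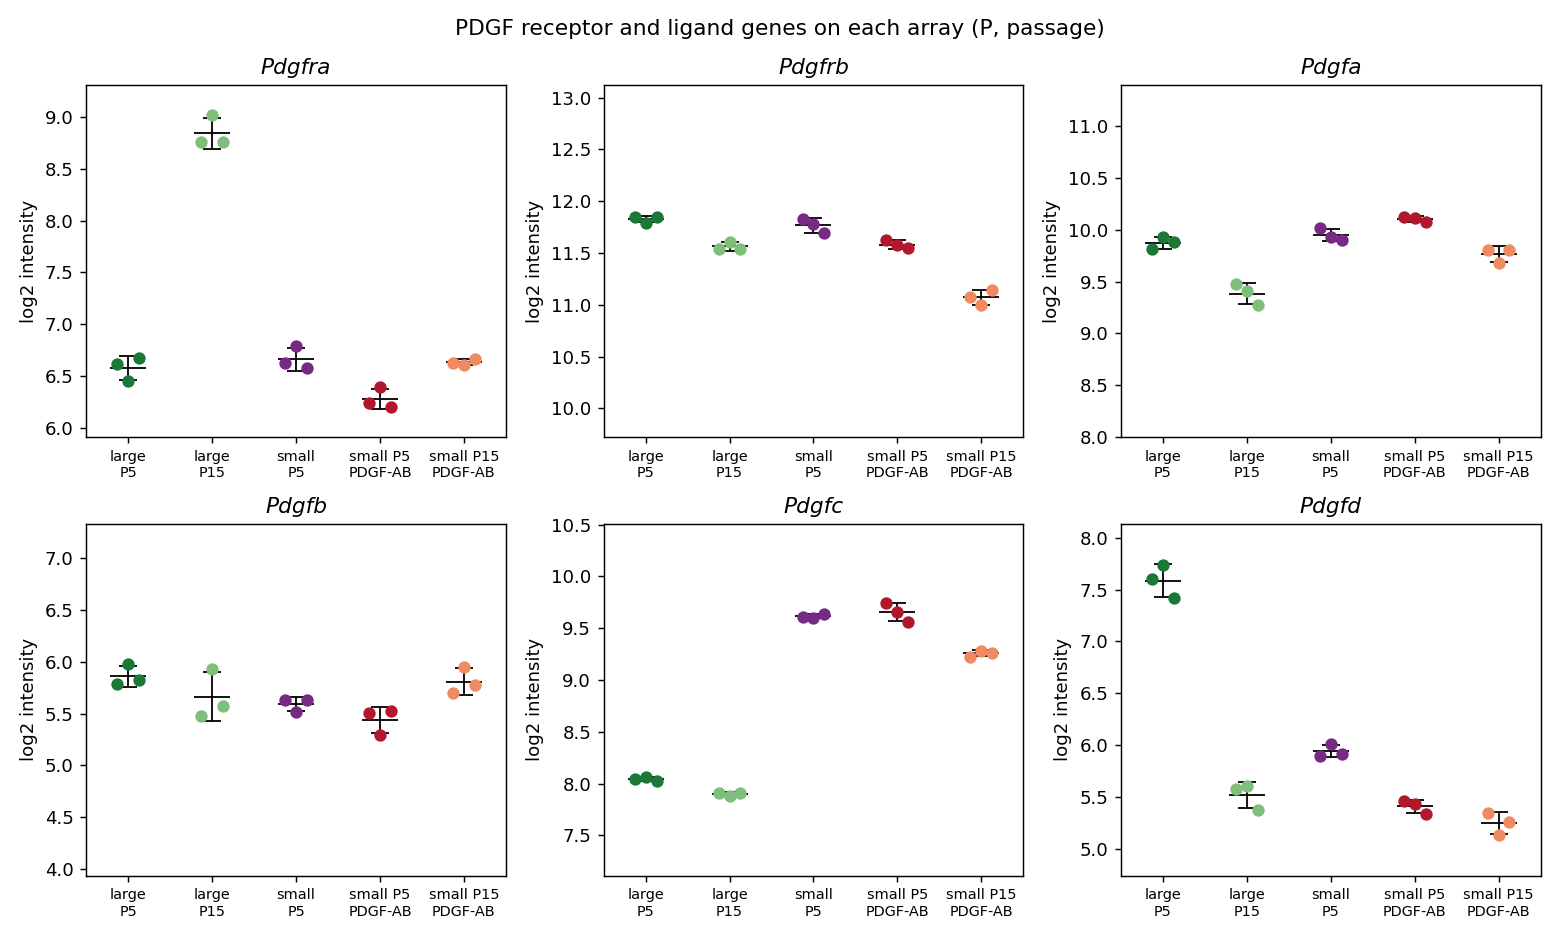
Log2 intensity of each of the 6 genes in the 15 arrays, by group, with points for arrays and bars for the group mean and SD of 3 arrays. Pdgfra in untreated large colonies at passage 15 sits between 8.76 and 9.02, Pdgfd in untreated large colonies at passage 5 between 7.42 and 7.74, and Pdgfc in the small colonies between 9.23 and 9.74.

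Pdgfrb, the other receptor, moved over a narrower range of 0.76. Its arrays read 11.84, 11.79 and 11.85 in large colonies at passage 5 and 11.54, 11.61 and 11.54 in large colonies at passage 15. In small colonies they read 11.83, 11.78 and 11.69 without PDGF-AB, 11.62, 11.58 and 11.54 with it at passage 5, and 11.07, 11.00 and 11.14 with it at passage 15. All 3 late treated arrays lay below every other array, and both untreated passage 5 groups overlapped at the top. Those groups were not told apart (adjusted p = 0.451), nor were treated small colonies at passage 5 and large colonies at passage 15 (adjusted p = 0.819). Over the 15 arrays, which share groups, the receptors had an r of -0.0029 with each other. Pdgfra had an r of -0.905 with Pdgfa, 0.058 with Pdgfb, -0.669 with Pdgfc and -0.207 with Pdgfd. For Pdgfrb the values in the same order were 0.242, -0.147, -0.233 and 0.666.

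Pdgfa, the chain that binds PDGFRα alone as a homodimer, was lowest in large colonies at passage 15, at 9.48, 9.41 and 9.27. It read 9.82, 9.93 and 9.88 in large colonies at passage 5, 10.02, 9.93 and 9.91 in untreated small colonies, 10.13, 10.12 and 10.08 in treated small colonies at passage 5, and 9.81, 9.68 and 9.81 in those at passage 15. The late large colonies lay below every other array and the treated small colonies at passage 5 above every other array. Late treated small colonies lay above late large ones by 0.38 (SE 0.064, adjusted p = 1.3e-04), and no other neighbours in the order of group means were told apart (adjusted p = 0.0844, 0.411 and 0.152).

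Pdgfb, the chain made mainly by endothelial cells and platelets, stayed near the array medians in all groups. Its arrays read 5.78, 5.98 and 5.82 in early large colonies, 5.48, 5.94 and 5.58 in late large colonies, 5.63, 5.51 and 5.63 in untreated small colonies, 5.50, 5.29 and 5.52 in early treated colonies, and 5.70, 5.95 and 5.78 in late treated colonies. Most groups overlapped, and the late large colonies had the widest spread (SD 0.24, n = 3), with replicate 2 above the others. No neighbours in the order of levels were told apart (adjusted p = 0.254 to 0.711).

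Pdgfc, whose dimers bind PDGFRα, separated the colony sizes. It read 8.04, 8.06 and 8.03 in large colonies at passage 5 and 7.91, 7.88 and 7.91 at passage 15. In small colonies it read 9.61, 9.60 and 9.64 without PDGF-AB, 9.74, 9.66 and 9.56 with it at passage 5, and 9.23, 9.28 and 9.26 with it at passage 15. Every array of small colonies lay above every array of large colonies, treated or not. The groups at the top, small colonies at passage 5 with and without PDGF-AB, were not told apart (adjusted p = 0.642), and the late treated colonies lay below both. The span of 1.76 was wider than that of 95.1% of genes.

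Pdgfd, whose dimers bind PDGFRβ, was highest in large colonies at passage 5, at 7.60, 7.74 and 7.42. All other arrays read lower, 5.57, 5.60 and 5.37 in large colonies at passage 15, 5.90, 6.01 and 5.91 in untreated small colonies, 5.46, 5.43 and 5.34 in early treated colonies, and 5.34, 5.13 and 5.26 in late treated colonies. Untreated small colonies came next in order and lay above the remaining 3 groups on every array. Late large, early treated and late treated colonies followed, neighbours among them overlapped, and these were not told apart (adjusted p = 0.331 and 0.134). These 3 groups lay near or below the array medians, where background limits how far a fall can be read. The span was 2.34, wider than that of 97.3% of genes.

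Passage 15 was compared with passage 5 in untreated large colonies to see what changed with time in culture. The α receptor rose, while the β receptor and 3 of 4 ligands fell. Of the 6 genes 1 rose and 4 fell, where 36.1% of all genes were called at an adjusted p under 0.05 (17.4% higher and 18.7% lower). Among the members only Pdgfb and Pdgfd lie below the median level over all genes. With the genes below that level left out, 31.7% were higher and 31.0% lower. Pdgfd fell 4.21-fold (-2.07, SE 0.085, adjusted p = 5.63e-12). Pdgfa fell by 0.49 (SE 0.064, adjusted p = 9.76e-06) and Pdgfrb by 0.26 (SE 0.057, adjusted p = 0.00133). Pdgfc was lower by 0.14 (adjusted p = 0.0450), a call lost without any 1 of the 6 arrays (adjusted p = 0.0752 to 0.113), with arrays centred (0.0800), with the compared arrays alone (0.0834) and with the replicate block (0.0594). Pdgfb differed by -0.20 (adjusted p = 0.168) and was called without replicate 2 of the late large colonies (adjusted p = 0.0107). Of the stromal fibroblast markers 5 of 8 rose and 2 fell in the same comparison, and the mean level of the 8 was 10.46 to 10.49 on the early arrays and 10.87 to 10.93 on the late ones. Their part in the change of Pdgfra was not tested, and in bulk RNA fewer cells of a type and less RNA per cell cannot be told apart.

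Large and small colonies were compared without PDGF-AB at passage 5 to ask what set the colony types apart. Both CUB-domain ligands differed, in opposite directions, and the other 4 genes were not told apart. This was 2 of 6 genes, where 36.2% of all genes were called (18.2% higher and 18% lower, or 29.3% and 32.4% with low genes left out). Pdgfc was 2.98-fold lower in large colonies (-1.57, SE 0.054, adjusted p = 4.21e-13), and Pdgfd was 3.13-fold higher (1.65, SE 0.085, adjusted p = 9.94e-11). The difference in Pdgfra was -0.08 (95% interval -0.26 to 0.10) and that in Pdgfrb 0.06 (-0.06 to 0.18), the latter with the opposite sign after cyclic loess. For Pdgfa it was -0.07 (-0.21 to 0.06). Pdgfb was higher by 0.27 (adjusted p = 0.0582), and passed with the compared arrays alone (0.0208) and with trend and robust moderation (0.0466). Pericyte markers moved too in this comparison, with 4 of 7 higher in large colonies and 2 lower. Their mean level was 6.35 to 6.42 in large colonies and 6.09 to 6.15 in small ones, a difference that rests largely on Rgs5. Rgs5 lay at 8.42 in large and 5.51 in small colonies. Notch3 (6.76 and 7.79) and Cspg4 (6.12 and 7.01) were lower in large ones. Over the alternatives run, leaving out low genes aside, 2 to 4 of the 7 were higher. The part of these markers in the difference of Pdgfd was not tested.

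**Figure D2:**
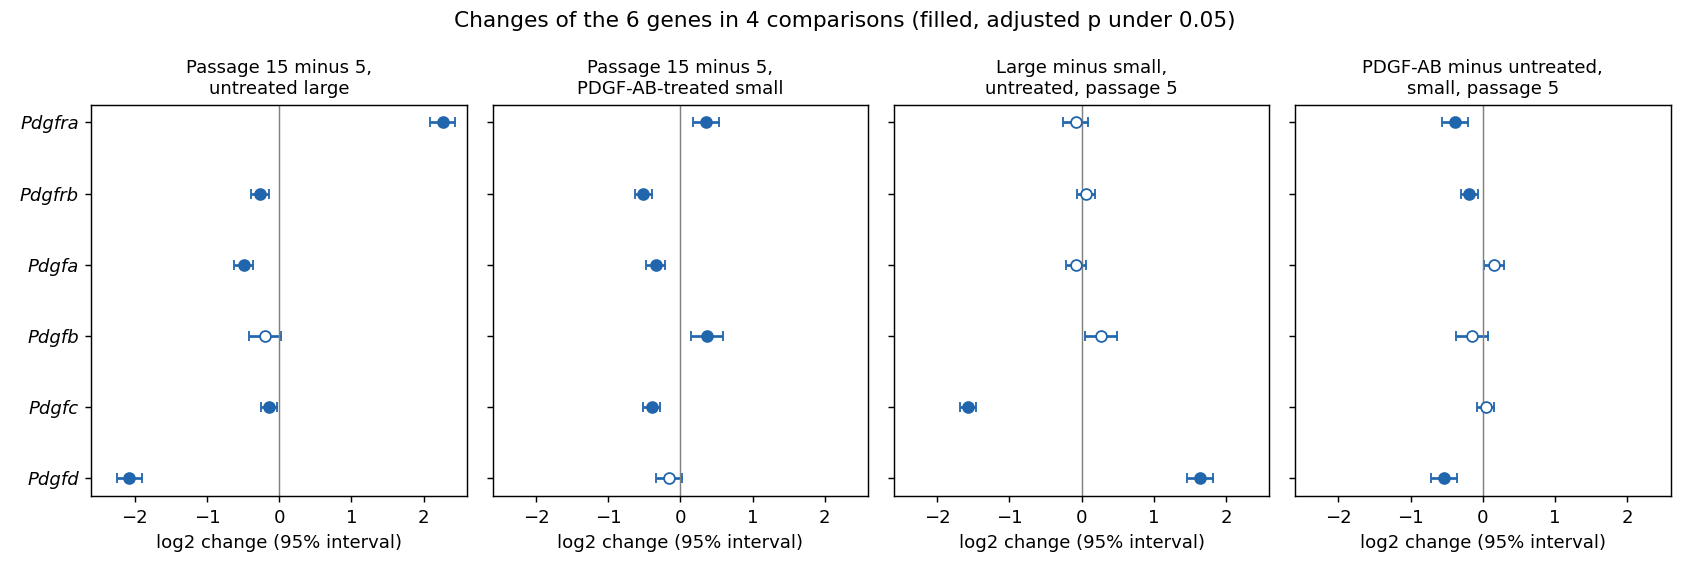
Log2 change of each of the 6 genes in 4 comparisons, as the first group minus the second, with 95% intervals from the limma fit and filled points for an adjusted p under 0.05. The passage changes of Pdgfra in large colonies (2.26) and of Pdgfd (-2.07) lie far from 0 on opposite sides, and Pdgfc (-1.57) and Pdgfd (1.65) do so in the comparison of colony sizes.

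PDGF-AB was compared with no treatment in small colonies at passage 5, the only matched test of the ligand in these data. Both receptors and Pdgfd fell, and no member rose. These were 3 of 6 genes, where 28.9% of all genes were called (10.7% higher and 18.2% lower, or 16.7% and 35.9% with low genes left out). Pdgfra fell by 0.39 (SE 0.084, adjusted p = 0.00218), a 1.31-fold decrease, and Pdgfd fell by 0.54 (SE 0.085, adjusted p = 1.52e-04), or 1.45-fold. Pdgfrb was lower by 0.19 (SE 0.057, adjusted p = 0.0221). That call was lost without replicate 1 (0.0966) or 2 (0.0686) of the untreated colonies, without replicate 2 (0.0617) or 3 (0.0800) of the treated ones, and with the compared arrays alone (0.0525). Pdgfa differed by 0.15 (adjusted p = 0.0844), and passed after cyclic loess (0.0118), with low genes left out (0.0388) and with trend and robust moderation (0.0321). Pdgfb, which encodes the other chain of the added dimer, differed by -0.15 (95% interval -0.38 to 0.07). Pdgfc differed by 0.04 (-0.08 to 0.15). Of the stromal fibroblast markers 5 of 8 fell and 0 rose, and their mean level was 10.38 to 10.45 on untreated arrays and 9.94 to 9.98 on treated ones. Their part in the falls of the receptors was not tested. The median change over genes, low genes left out, was -0.074 in this comparison. Genes of chromosome 18, which holds Pdgfrb, were shifted in median by -0.099 beyond the whole set. The part of these shifts in the fall of Pdgfrb was not tested.

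Treated small colonies were also followed from passage 5 to passage 15. Pdgfra and Pdgfb rose, and Pdgfrb, Pdgfa and Pdgfc fell, 5 of 6 genes where 46% of all genes were called (24.6% higher and 21.4% lower). Leaving out low genes gave 31.8% higher and 38.4% lower. With arrays centred on their medians the share of calls that were higher went from 53.6% to 41.7% over all genes. The rise of Pdgfra was 0.36 (SE 0.084, adjusted p = 0.00204), and that of Pdgfb 0.37 (SE 0.10, adjusted p = 0.00832). The falls were 0.51 for Pdgfrb (SE 0.057, adjusted p = 1.28e-06), 0.40 for Pdgfc (SE 0.054, adjusted p = 1.06e-05) and 0.34 for Pdgfa (SE 0.064, adjusted p = 3.06e-04). Pdgfd differed by -0.16 (adjusted p = 0.134), with 0.0489 after cyclic loess. Of 9 endothelial markers 4 were higher and 0 lower, with mean levels of 4.71 to 4.90 and 5.02 to 5.10 that lay below the array medians in both groups. Of 4 platelet markers 3 were higher and 0 lower, with mean levels of 4.54 to 4.66 on the early arrays and 4.83 to 5.06 on the late ones. Among them Pf4, platelet factor 4, lay at 3.81 and 3.97, and Ppbp at 3.42 and 4.12. Of 7 macrophage and leukocyte markers 3 were higher and 2 lower. Their mean level was 5.38 to 5.42 on the early arrays and 4.85 to 4.94 on the late ones. That difference rests largely on Lyz2, which went from 8.93 to 5.35. Over the alternatives run, leaving out low genes aside, 2 to 6 endothelial, 1 to 3 platelet and 0 to 3 macrophage markers were higher. The part of these markers in the rise of Pdgfb was not tested.

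The passage changes of untreated large and treated small colonies differed for 5 of the 6 genes, where 34.4% of all genes differed (18.6% higher and 15.9% lower). Leaving out low genes gave 22.4% higher and 29.8% lower. With arrays centred the share of higher calls over all genes went from 53.9% to 39.0%. Pdgfra rose in both, but the rise was 1.91 smaller on the log2 scale in treated small colonies (SE 0.12, adjusted p = 2.70e-09). The change of Pdgfd was 1.91 more positive there (SE 0.12, adjusted p = 3.01e-09). Pdgfd already lay at 5.41 in early treated small colonies, below the array medians, against 7.59 in early large ones. Background therefore limits how far a fall could be read in treated small colonies. That of Pdgfb was 0.57 more positive (adjusted p = 0.00753) and that of Pdgfc 0.25 more negative (adjusted p = 0.0168). For Pdgfrb the difference was -0.25 (adjusted p = 0.0270), lost without replicate 2 of either large group, replicate 1 of the early treated or replicate 2 of the late treated colonies (0.0595 to 0.0654). For Pdgfa it was 0.15 (adjusted p = 0.214). Colony size and PDGF-AB both differ between these series, so which of them goes with the difference cannot be told apart.

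Treated small colonies were set against untreated large colonies at each passage. At passage 5, 2 genes were higher and 4 lower in treated small colonies, where 35.7% of all genes were called (14.8% higher and 20.9% lower, or 25.2% and 38.4% with low genes left out). Pdgfc was 3.05-fold higher and Pdgfd 4.53-fold lower, and the other changes were 0.23 for Pdgfa, -0.25 for Pdgfrb, -0.30 for Pdgfra and -0.42 for Pdgfb (adjusted p = 0.00249 to 0.00981). At passage 15, 2 were higher and 3 lower, where 53.4% of all genes were called (29.2% higher and 24.2% lower, a share of higher calls of 54.6% that became 36.5% with arrays centred). Leaving out low genes gave 25.1% higher and 43.4% lower. Pdgfra was 4.63-fold lower (-2.21, adjusted p = 1.33e-12) and Pdgfc 2.56-fold higher (1.36, adjusted p = 2.35e-12). Pdgfrb was lower by 0.49 (adjusted p = 2.29e-06). Pdgfd was lower by 0.27 (adjusted p = 0.0142), lost without replicate 1 or 2 of the large colonies (0.0551 and 0.0611) or replicate 2 of the small ones (0.0704). Pdgfb differed by 0.15 (adjusted p = 0.254), and passed without replicate 2 of the large colonies (0.0210). Late treated colonies were also compared with untreated small colonies at passage 5, where passage and PDGF-AB cannot be told apart. There 0 genes were higher and 4 lower, where 54.7% of all genes were called (29.6% higher and 25% lower, and 54.2% of calls higher against 35.9% centred). Leaving out low genes gave 25.2% higher and 44.7% lower. Pdgfrb and Pdgfd each were lower by 0.70 (adjusted p = 3.38e-08 and 3.61e-06), Pdgfc by 0.36 (adjusted p = 3.27e-05) and Pdgfa by 0.19. The adjusted p of Pdgfa was 0.0209, and it was 0.0887 without replicate 1 of the untreated and 0.0949 without replicate 2 of the treated colonies, and 0.286 after cyclic loess. The remaining 3 pairs served only to order the levels. Late large colonies had 1 gene higher and 4 lower than untreated small ones, where 38.5% of all genes were called (18.9% higher and 19.5% lower, or 32.5% and 33.1% with low genes left out). They had 1 higher and 2 lower than early treated colonies, where 45.3% were called (23.5% higher and 21.8% lower, or 41.0% and 30.7% with low genes left out). Late treated colonies had 1 higher and 2 lower than early large ones, where 49.9% were called (25.4% higher and 24.5% lower, and 50.9% of calls higher against 36.7% centred). Leaving out low genes gave 30.4% higher and 44.3% lower. Comparisons that share a group of arrays are not independent of each other.

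Genes with patterns most like those of the 3 wide-ranging members were taken among 2021 genes at or above the median level with a span of at least 1. For Pdgfra these were Errfi1, an inhibitor of EGF receptor signalling (r = 0.982 over 15 arrays), Zfp81, a zinc finger gene (0.980), and Ptprk, a receptor tyrosine phosphatase (0.980). Errfi1 had means of 10.24 ± 0.056 (SD, n = 3) in late large colonies and 9.01 to 9.10 in the other 4 groups. For Pdgfc they were Eng, the TGF-β coreceptor endoglin (0.996), Tbx20, a cardiac T-box transcription factor (0.992), and Ampd3, an AMP deaminase (0.990). Tbx20 lay at 3.30 ± 0.23 and 3.47 ± 0.031 in large colonies, below the lower quartile of the arrays, and at 8.61 ± 0.065, 8.16 ± 0.020 and 7.23 ± 0.083 in untreated, early treated and late treated small colonies. Eng lay at 5.91 and 6.15 in large and at 9.55 to 10.36 in small colonies. For Pdgfd they were Mertk, a receptor tyrosine kinase for apoptotic cells (0.970), Ccnh, cyclin H (0.966), and Fam20c, a kinase of secreted proteins (0.962). Ccnh had a mean of 10.40 ± 0.075 in early large colonies and of 8.23 to 8.66 elsewhere. The correlations are descriptions over arrays that share 5 groups.

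**Figure D3:**
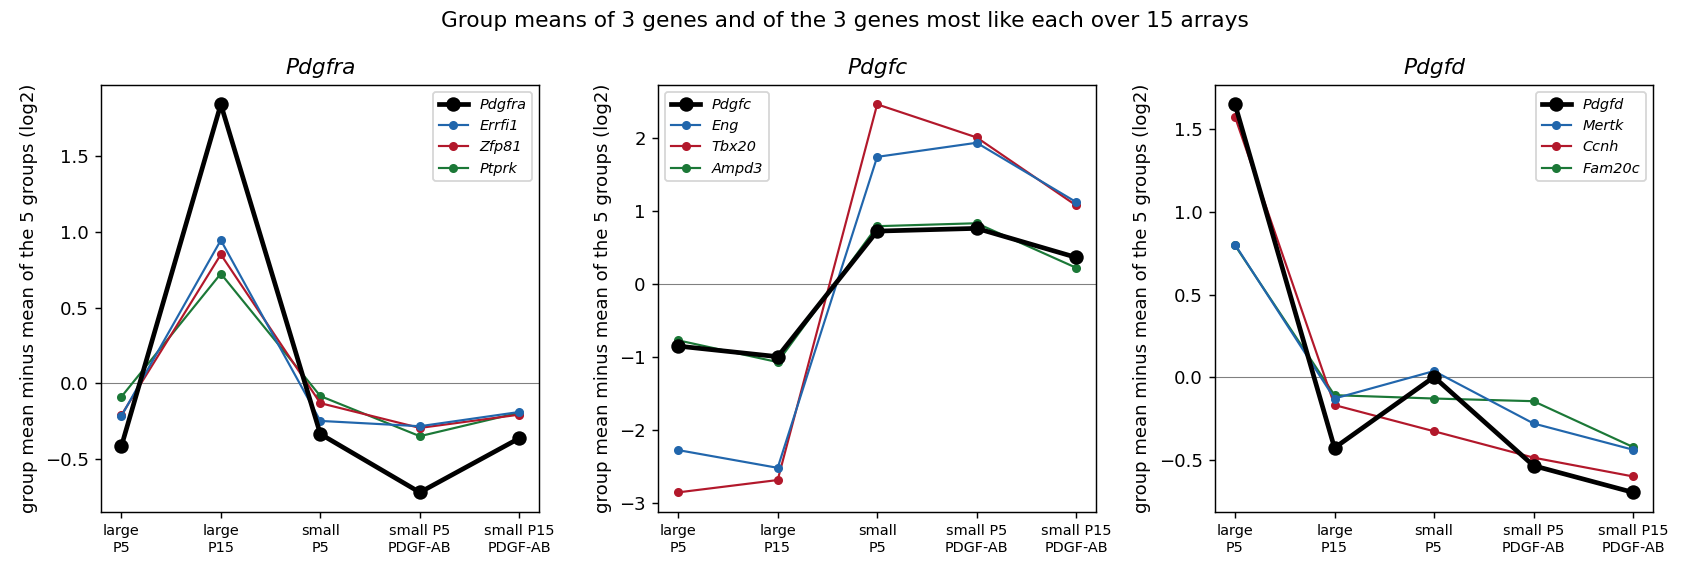
Group means of Pdgfra, Pdgfc and Pdgfd and of the 3 genes with the highest correlation to each over the 15 arrays, each gene relative to the mean of its 5 group means, on the log2 scale. The genes beside Pdgfra peak in late large colonies, those beside Pdgfc are higher in all 3 small groups, and those beside Pdgfd peak in early large colonies.

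The 3 nearest measured genes on each side of a member were examined, in the gene order of GRCm38.p6. Pdgfra lies on chromosome 5 beside Kit and Kdr, receptor genes of the same superfamily. With passage in large colonies Kit changed by -0.06 and Kdr by 0.08, and of the 6 neighbours only Srd5a3 was called, at 0.25 (adjusted p = 0.00228). In that comparison 36.1% of all genes were called, 17.4% higher and 18.7% lower, or 31.7% and 31.0% with low genes left out. Of the neighbours of Pdgfd on chromosome 9, 4 of 6 rose and 0 fell in the same comparison, beside those same shares, while Pdgfd fell. The caspase genes Casp4 (1.54) and Casp12 (0.73) were among those that rose. Of the neighbours of Pdgfc on chromosome 3, the glycine receptor gene Glrb was higher (0.68) and the cathepsin gene Ctso lower (-0.88) in large than in small colonies. There 18.2% of all genes were higher and 18% lower. Chromosome by chromosome, and over 9955 genes that were not below the median level, the median shift beyond that of the whole set with passage in large colonies was 0.028 for chromosome 5 and -0.012 for chromosome 9. Between large and small colonies it was -0.0062 on chromosome 3, -0.16 on chromosome 9 and -0.32 on chromosome 15, which holds Pdgfb. With PDGF-AB it was -0.13 on chromosome 15, -0.099 on chromosome 18, 0.011 on chromosome 9 and -0.0010 on chromosome 3. In early treated small against early large colonies it was 0.16, -0.14, 0.15 and -0.0035 in that order. In late treated against untreated small colonies it was -0.21 on chromosome 15. The part of these shifts in the changes of the members was not tested.

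The other genes of the pathway were 99 tested genes in lists ordered by role. In untreated large colonies 25 of them rose and 23 fell with passage, 48.5% of the 99 beside 36.1% of all genes. With PDGF-AB 22 rose and 24 fell, 46.5% beside 28.9%. The lists were not matched to all genes by level, and larger shares were called with low genes left out. There 31.7% rose and 31.0% fell with passage in large colonies, 16.7% and 35.9% with PDGF-AB, and 31.8% and 38.4% with passage in treated small colonies. Between large and small colonies 29.3% were higher and 32.4% lower. The passage changes were more positive for 22.4% and more negative for 29.8%. Of 9 ligand processing genes 1 rose and 5 fell with passage in treated small colonies, where 24.6% of all genes rose and 21.4% fell, and over the alternatives run, leaving out low genes aside, 0 to 1 rose and 4 to 5 fell. Among the latter were Furin, which cuts A and B chains (-0.67, adjusted p = 3.43e-07), the related Pcsk6 (-1.87, adjusted p = 1.45e-12) and Plat, tissue plasminogen activator (-0.83, adjusted p = 1.57e-09). In large colonies Plat rose with passage (0.56), as did Plau, which encodes urokinase (0.92), and both were lower in large than in small colonies at passage 5 (-0.45 and -1.27). Plat fell by 0.34 with PDGF-AB (adjusted p = 1.83e-04). Plau was higher by 0.23 with PDGF-AB (adjusted p = 0.0438), a call lost in 8 of the alternatives run, the replicate block among them (0.0584).

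The list of ligand binding and coreceptor genes held 12, of which 3 were higher and 4 lower in large than in small colonies, where 18.2% of all genes were higher and 18% lower. Nrp1, a neuropilin coreceptor that can bind PDGF, was 3.26-fold higher in large colonies (1.71, adjusted p = 3.82e-13) and its relative Nrp2 lower (-1.64). Cspg4, the NG2 proteoglycan that binds PDGF-A, rose with passage in treated small colonies by 1.51 (adjusted p = 3.41e-09), from 7.52 ± 0.039 to 9.03 ± 0.16 (SD, n = 3). Of 32 adaptors and effectors 10 fell and 3 rose with PDGF-AB, where 18.2% of all genes fell and 10.7% rose. With low genes left out 35.9% of genes fell and 16.7% rose. Over the alternatives run, leaving out low genes aside, 7 to 12 of the 32 fell and 1 to 3 rose. With passage in treated small colonies 14 fell and 6 rose, where 21.4% of all genes fell and 24.6% rose (38.4% and 31.8% with low genes left out). Over the same alternatives 12 to 17 of the 32 fell and 4 to 9 rose. The adaptor Gab2 rose by 0.62 with PDGF-AB and fell by 0.56 with passage in large colonies and by 1.17 in treated small ones. Pik3cb, a catalytic subunit of PI 3-kinase, rose by 1.16 with passage in treated small colonies. Of 16 attenuators of the receptors 4 rose and 4 fell with PDGF-AB, beside 10.7% and 18.2% of all genes, with falls of 0.74 and 0.49 in the phosphatases Ptpn2 and Ptpn1. Socs3, an inhibitor of cytokine signalling, rose by 1.27 with passage in large colonies and fell by 1.14 in treated small ones. Of 14 related receptors and ligands, Flt1, a VEGF receptor, fell by 1.42 with PDGF-AB (adjusted p = 1.73e-09). Kitl, the ligand of Kit, and Pgf, placental growth factor, differed between colony sizes in opposite directions (-2.09 and 2.44). Pgf averaged 6.73 in large colonies and 4.29 in small ones, the latter near the lower quartiles of the arrays, where background limits how far the size of its difference can be read.

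Genes known to be induced by PDGF in fibroblasts numbered 18, listed from general knowledge of the response. With PDGF-AB 7 rose and 4 fell, where 10.7% of all genes rose and 18.2% fell, with a median change of 0.15 beside 0.02 over all genes. The immediate early genes Fos and Egr1 rose by 0.95 and 0.55, and Sphk1, a sphingosine kinase, by 0.59. The falls were in the chemokine Ccl7 (-0.63), the hyaluronan synthase Has2 (-0.39), the cytokine Lif (-0.38) and Myc (-0.35). With passage in treated small colonies 3 rose and 13 fell, where 24.6% of all genes rose and 21.4% fell and the share of calls that were higher was 53.6%, or 41.7% with arrays centred. The median of the list was -0.55 beside 0.05, and over the alternatives run, leaving out low genes aside, 2 to 5 of its genes rose and 11 to 13 fell. Fos fell by 2.63 (adjusted p = 2.81e-13), Ccl7 by 2.30 and the chemokine Ccl2 by 1.89, while Myc rose by 1.07. In large colonies 9 rose and 4 fell with passage, beside 17.4% and 18.7% of all genes (median 0.20 beside -0.04), led by Has2 at 2.31 (adjusted p = 3.43e-14), and Hmox1, heme oxygenase, fell by 0.70. Large colonies had 2 of these genes higher and 11 lower than small ones without PDGF-AB, beside 18.2% and 18% of all genes (median -0.33 beside 0.03), with Has2 lower by 2.36 and Ptgs2, cyclooxygenase-2, higher by 1.49. The passage changes themselves differed for 13 of the 18, 12 of them more negative in treated small colonies, where 34.4% of all genes differed and 15.9% were more negative (median -0.86 beside 0.07 over all genes).

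**Figure D4:**
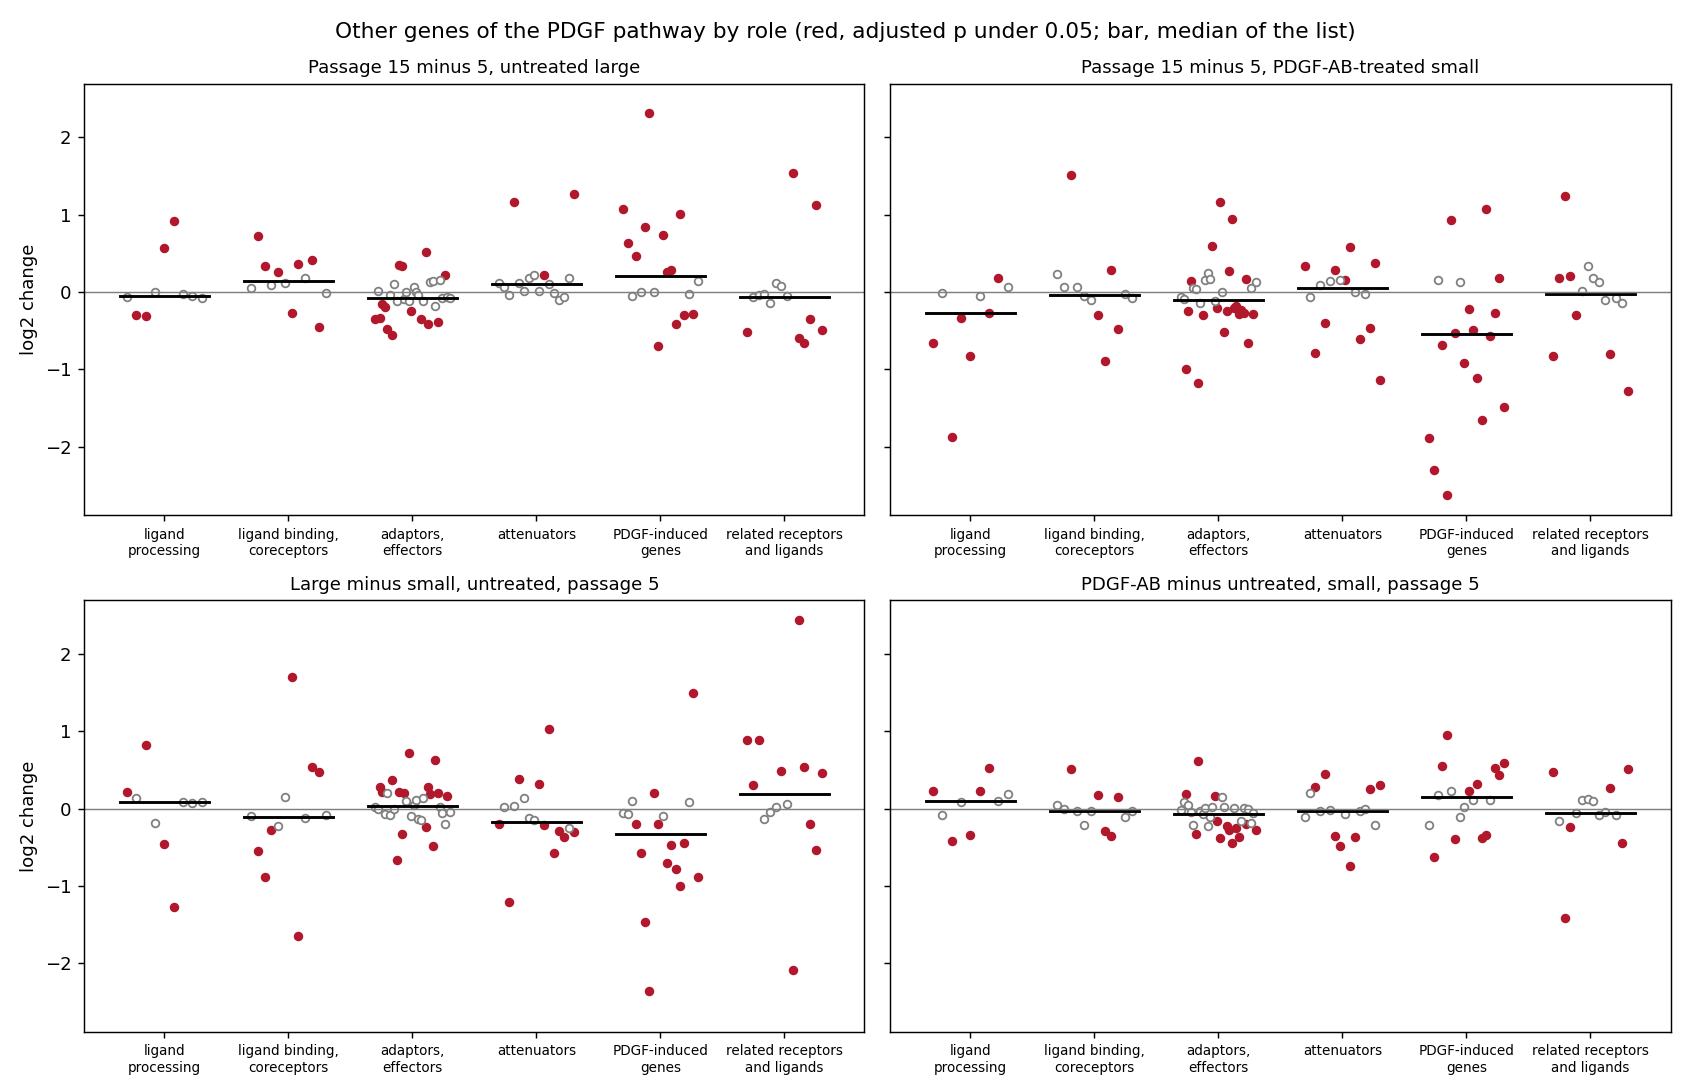
Log2 changes of the tested genes of each role list in 4 comparisons, a point for each gene (red at an adjusted p under 0.05) and a bar for the median of the list. The genes known to be induced by PDGF have a median of -0.55 with passage in treated small colonies and of 0.20 with passage in large colonies.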

How the data were processed

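RNA from cultured cCFU-F was measured on 15 Affymetrix arrays. The values used are the deposited log2 intensities of 28853 probe sets, as the authors made them. Per the submitters' processing notes RMA and limma were used, and neither has a version or a stated step there. Raw scans were not used here, and depth has no meaning for arrays, whose number limits the precision. Probe sets naming 1 gene were kept, with the highest mean over 15 arrays where a gene had several, which left 19938 genes. Groups came from the labels. A single limma fit (limma 3.58.1, R 4.3.3) with 5 group means was used for 11 contrasts, 2-sided, with Benjamini-Hochberg adjustment over all genes and a threshold of 0.05. Changes had a median SE of 0.078, with 10 residual and 5.80 prior degrees of freedom. The pipeline was tested on simulated data.

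The members, gene lists, markers, neighbours and tests were chosen with earlier results of these data known. Named genes were the 6 members, 7 fixed genes (Pecam1, Ly6a, Furin, Plat, Plau, Nrp1 and Lrp1), the 4 largest rises and falls among called list genes in each comparison, and the 3 most correlated genes. Further genes in the text were chosen after their values were seen. These were the markers Thy1, Lum, Tnnt2, Rgs5, Notch3, Cspg4 between colony sizes, Pf4, Ppbp and Lyz2, and Lif, Myc and Has2 with PDGF-AB. Gab2 and Socs3 in treated small colonies, the named neighbours, Xist and the Y-linked genes were chosen in the same way. Of 110 listed pathway genes 99 were tested, and the others were not analysed here. Chromosome shifts used 9955 genes at or above the median level. The main fit did not pair arrays by replicate number. With passage in large colonies the deviations of same-numbered arrays from their group means correlated (r = 0.0984 to 0.208). There 6 of 6 arrays correlated best with their own number, and a replicate block was run as an alternative. Alternatives were centring arrays, cyclic loess, leaving out low genes, averaging probe sets, the compared arrays alone, trend and robust moderation, array weights, a replicate block, and leaving out each array. The labels mention a PDGF receptor inhibitor, but no sample carries it.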

Additional observations from a re-analysis of the deposited data

Results flagged for a closer look

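Named genes whose passage changes differed between treated small and untreated large colonies by the interaction test of limma are given here, where 34.4% of all genes differed. With low genes left out 22.4% were more positive and 29.8% more negative. Of the 6 PDGF genes 5 differed, and of the 6 fixed genes that were tested 4 did. The remaining genes were named for the size of their change, in this comparison among others, or for their correlation with a PDGF gene, so that 22 of 27 and 8 of 8 of them differed is a description and supports nothing. Values are the log2 change with passage in treated small colonies minus that in untreated large colonies. For the PDGF genes they were -1.91 for Pdgfra, -0.25 for Pdgfrb, 0.57 for Pdgfb, -0.25 for Pdgfc and 1.91 for Pdgfd. Pdgfd lay below the array medians in treated small colonies at both passages, which limits how far a fall could be read there. The fixed genes gave -1.40 for Plat, -0.97 for Plau and -0.60 for Furin. Pecam1 gave 0.30 at levels below the array medians, a call lost in 10 of the 19 alternatives run (adjusted p up to 0.286 after cyclic loess, 0.0992 with arrays centred, and up to 0.0896 without 1 array).

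The protease Pcsk6 gave -1.56. Genes known to be induced by PDGF gave -2.96 for Ccl2, -2.93 for Ccl7, -2.84 for Has2, -2.63 for Fos, -1.62 for Sphk1, -1.24 for Lif, -1.15 for Egr1, 0.46 for Ptgs2 and -0.22 for Hmox1, the last lost in 8 of 20 alternatives (up to 0.0856). Receptor attenuators gave -2.41 for Socs3, -1.07 for Errfi1, -0.75 for Cblb and 0.36 for Ptpn2, the last lost in 4 of 20 (up to 0.866). Effectors gave 1.10 for Pik3cb, -0.62 for Gab2 and 0.59 for Nras, and coreceptors -1.25 for Nrp2 and 1.17 for Cspg4. Related receptors and ligands gave -1.41 for Kitl, 1.28 for Flt1 and 0.49 for Pgf, whose level in treated small colonies lay near the lower quartiles of the arrays and whose call was lost in 1 of 19 (0.0619). The genes most like Pdgfra gave -0.98 for Zfp81 and -0.66 for Ptprk. Those most like Pdgfc gave -1.10 for Tbx20, -0.57 for Eng and -0.31 for Ampd3, the last lost in 3 of 20 (up to 0.0605), and Tbx20 lay below the lower quartile in large colonies. Those most like Pdgfd gave 1.63 for Ccnh, 0.77 for Mertk and 0.63 for Fam20c. Single arrays that stand apart in a group of 3 were not flagged here, and the effect of leaving out each array is given below.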

How the results depend on the processing

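Of 66 results for the 6 genes, 46 kept direction and call under every alternative run, and 20 changed at least once. Of 22 gene counts 2 moved by over 1.5 times. Values below are adjusted p-values from limma. With arrays centred, Pdgfc with passage in large colonies gave 0.0800, Pdgfa in late treated small against early large colonies 0.0236, and signs turned for Pdgfra in that pair (0.819), Pdgfrb in late large against early treated small colonies (0.920) and Pecam1 in early treated small against early large colonies (0.914). After cyclic loess signs turned for Pdgfrb between colony sizes (0.882), Pdgfra in late treated against untreated small colonies (0.835), Pdgfa in late treated small against early large colonies (0.775) and Pecam1 as above (0.930). Loess also gave 0.0118 for Pdgfa with PDGF-AB, 0.0489 for Pdgfd with passage in treated colonies, 0.286 for Pdgfa in late treated against untreated small colonies, and 0.0305 for Pdgfb in late large against early treated colonies. Without low genes Pdgfa with PDGF-AB gave 0.0388, and 6829 genes differed between late treated and late large colonies (10637 in the main fit) and 6974 between late treated and untreated small colonies (10901), fewer genes being tested. Pdgfb and Pdgfd lie below that level and have no value there. The compared arrays alone gave 0.0834 for Pdgfc with passage in large colonies, 0.0208 for Pdgfb between colony sizes, 0.0525 for Pdgfrb with PDGF-AB and 0.0396 for Pdgfb in late treated against untreated small colonies. Trend and robust moderation gave 0.0466 for Pdgfb between colony sizes and 0.0321 for Pdgfa with PDGF-AB, and array weights 0.0235 for Pdgfb in late large against early treated colonies. Each of the 6 genes has 1 probe set, so averaging probe sets left their levels as they were.

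The replicate block ended the call of Pdgfc with passage in large colonies (0.0594), and among the 6 genes it changed no other call. Correlations of same-numbered arrays in that comparison were 0.208, 0.0984 and 0.202, with 6 of 6 arrays correlating best with their own number.

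Leaving out each array in turn gave these ranges. With passage in large colonies they were 0.0107 to 0.535 for Pdgfb, 0.0752 to 0.113 for Pdgfc and 0.148 to 0.911 for Lrp1. With PDGF-AB they were 0.0125 to 0.0966 for Pdgfrb, 0.328 to 0.951 for Pdgfc and 0.347 to 0.979 for Lrp1. With passage in treated colonies Plau gave 0.292 to 0.933. For the difference of passage changes Pdgfrb gave 0.0200 to 0.0654, Pecam1 0.0165 to 0.0896 and Nrp1 0.561 to 0.997. Between colony sizes Lrp1 gave 0.0367 to 0.816. In late treated against late large colonies Pdgfb gave 0.0210 to 0.712 and Pdgfd 0.00518 to 0.0704. In late treated against early large colonies Pdgfra gave 0.401 to 0.933 and Pdgfb 0.414 to 0.986. In late treated against untreated small colonies Pdgfra gave 0.534 to 0.906 and Pdgfa 0.0234 to 0.0949. In early treated against early large colonies Pecam1 gave 0.580 to 0.988, Furin 0.469 to 0.962 and Lrp1 0.0190 to 0.644. In late large against untreated small colonies Pdgfb gave 0.302 to 0.895, and against early treated colonies it gave 0.0292 to 0.477 and Pdgfrb 0.639 to 0.978. The cause of these changes was not tested.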

Other observations

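The fixed gene Lrp1, an endocytic coreceptor of PDGFRβ, differed in 1 of the 7 pairs of groups compared beyond order, being lower in late treated small than in late large colonies by 0.39 (adjusted p = 0.00557 from limma). Without replicate 2 of the early large colonies it was also called between colony sizes (adjusted p = 0.0367, against 0.322 with all arrays) and in early treated small against early large colonies (0.0190, against 0.222). In the comparison of early treated small with early large colonies, 13 of the 18 genes known to be induced by PDGF were higher and 3 lower, where 14.8% of all genes were higher and 20.9% lower, with a median of 0.50 beside -0.0052 over all genes. Colony size and PDGF-AB cannot be told apart there. Without PDGF-AB, 2 of the 18 were higher and 11 lower in large than in small colonies (median -0.33). The matched test of PDGF-AB in small colonies gave 7 higher and 4 lower (median 0.15).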
